A study of Homo sapiens with 6 samples.

Results

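The genes described here are the enzymes that write, erase or copy marks on histones and DNA, chosen by symbol from 9 families: the KDM demethylases, the HDAC and SIRT deacetylases, the KAT acetyltransferases, the KMT, SETD and EZH methyltransferases, the DNMT DNA methyltransferases and the TET dioxygenases. KDM3A, KDM5C, KDM5D and KDM6A were left out by the rule. The rule itself reads symbols and no measured value, though it was set with earlier results of these data known, and gave 61 of the 24462 gene symbols in the count files, and all 61 were among the 16314 genes that passed the filter on low counts. RNA-seq of PC3 cells, a human prostate cancer line established from a metastasis in bone, compared 3 libraries of cells transfected with a non-targeting siRNA (si-Control) with 3 labelled as transfected with siRNA against CITED2 (si-CITED2), each at 80 nM for 72 h. Both groups carried an siRNA, and no untransfected library was analysed here. The study's methods list 1 siRNA sequence for CITED2 and 1 for the control, so an effect on CITED2 and an effect of that sequence on other transcripts cannot be told apart. The legend of the experiment describes 3 independent performances, but the labels do not tie a library to a culture, so the p-values measure only the spread between these libraries.

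Histone acetyltransferases (the KAT family) place acetyl groups on lysines, which loosens contacts with DNA and recruits readers, and the zinc-dependent HDAC and NAD-dependent SIRT enzymes remove them. Methylation of histone lysines by the KMT, SETD and EZH proteins marks either active or silenced chromatin according to the lysine, and the KDM enzymes reverse it. DNMT1 copies cytosine methylation at replication, DNMT3A and DNMT3B place it anew, and the TET enzymes oxidise it. CITED2 itself has no such activity but binds the acetyltransferases CBP and p300, which lie outside the 9 families. The study also cites work in which CITED2 bound the acetyltransferase GCN5, the product of the member KAT2A.

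The targeted transcript went against the labels. CITED2 was at 859, 892 and 773 normalized counts in si-Control 1, 2 and 3 and 1084, 921 and 984 in the libraries labelled si-CITED2 1, 2 and 3, where normalized counts are counts scaled to the mean library size. All 3 libraries labelled si-CITED2 lay above all 3 si-Control libraries (log2 fold change 0.24, standard error 0.074, adjusted p = 0.0363 by the edgeR quasi-likelihood test with Benjamini-Hochberg adjustment), and directions below are therefore those of the libraries labelled si-CITED2. The call of CITED2 was lost without si-Control 1, si-Control 3, si-CITED2 1 or si-CITED2 3, with log2 fold changes from 0.17 to 0.25. The study checked the knockdown at the protein level by immunoblot, which was not analysed here. Libraries held 19508925 to 28936374 counts. Of all genes tested, 17.4% were called at an adjusted p under 0.05, 8.09% lower and 9.36% higher in the libraries labelled si-CITED2. The keratins KRT8, KRT18 and KRT19 and the adhesion genes EPCAM and CDH1 were counted at 2107 to 22684 normalized counts in every library, and the prostate antigen KLK3 was at 0 in 5 of the 6. Of these 5 epithelial markers, CDH1 and EPCAM were lower (log2 fold change -0.52 and -0.33, adjusted p = 1.67e-05 and 0.0011) and KRT8 and KRT18 higher (log2 fold change 0.24 and 0.18, adjusted p = 0.0026 and 0.0267). Of 5 blood markers, HBA1 was at 0.889, 2.42 and 1.18 against 53.4, 52.6 and 40.5 (si-Control 1 to 3 against the libraries labelled si-CITED2 1 to 3, an order kept below) and HBB at 0, 0 and 0 against 24.3, 30.6 and 21.9, while PTPRC and CD3E did not exceed 1.78 and CD68 was at 3429, 3178 and 3291 against 3440.0, 3013 and 2873. The summed blood list was at 3182 to 3432 in si-Control and 2935 to 3519 in the libraries labelled si-CITED2. Fibroblast and endothelial markers summed to at most 168 and 19.6 normalized counts in any library. Their part in the results below was not tested.

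Of the 61 enzyme genes, 12 passed the test (19.7%), 6 of them lower and 6 higher, beside 17.4% of all genes, so the share called was near that of the transcriptome. The lower genes were the acetyltransferases KAT2B, KAT7 and KAT6B, the deacetylase SIRT7, the polycomb methyltransferase EZH2 and the DNA methyltransferase DNMT1. The higher genes were the demethylases KDM7A, KDM6B and KDM5B, the deacetylase HDAC5 and the methyltransferase-family genes SETD5 and KMT2C. The median log2 fold change of the 61 was -0.02, beside -0.0014 for all genes, and 33 of the 61 lay below 0, beside 50.3% of all genes. The groups did not overlap for 16 members, 9 with the libraries labelled si-CITED2 below and 7 above, beside 32.5% of all genes, 16.1% below and 16.4% above. Changes were small: only KDM7A and KAT2B moved by more than 0.5 on the log2 scale. In bulk RNA, fewer cells that express a gene and less RNA per cell cannot be told apart.

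**Figure D1:**
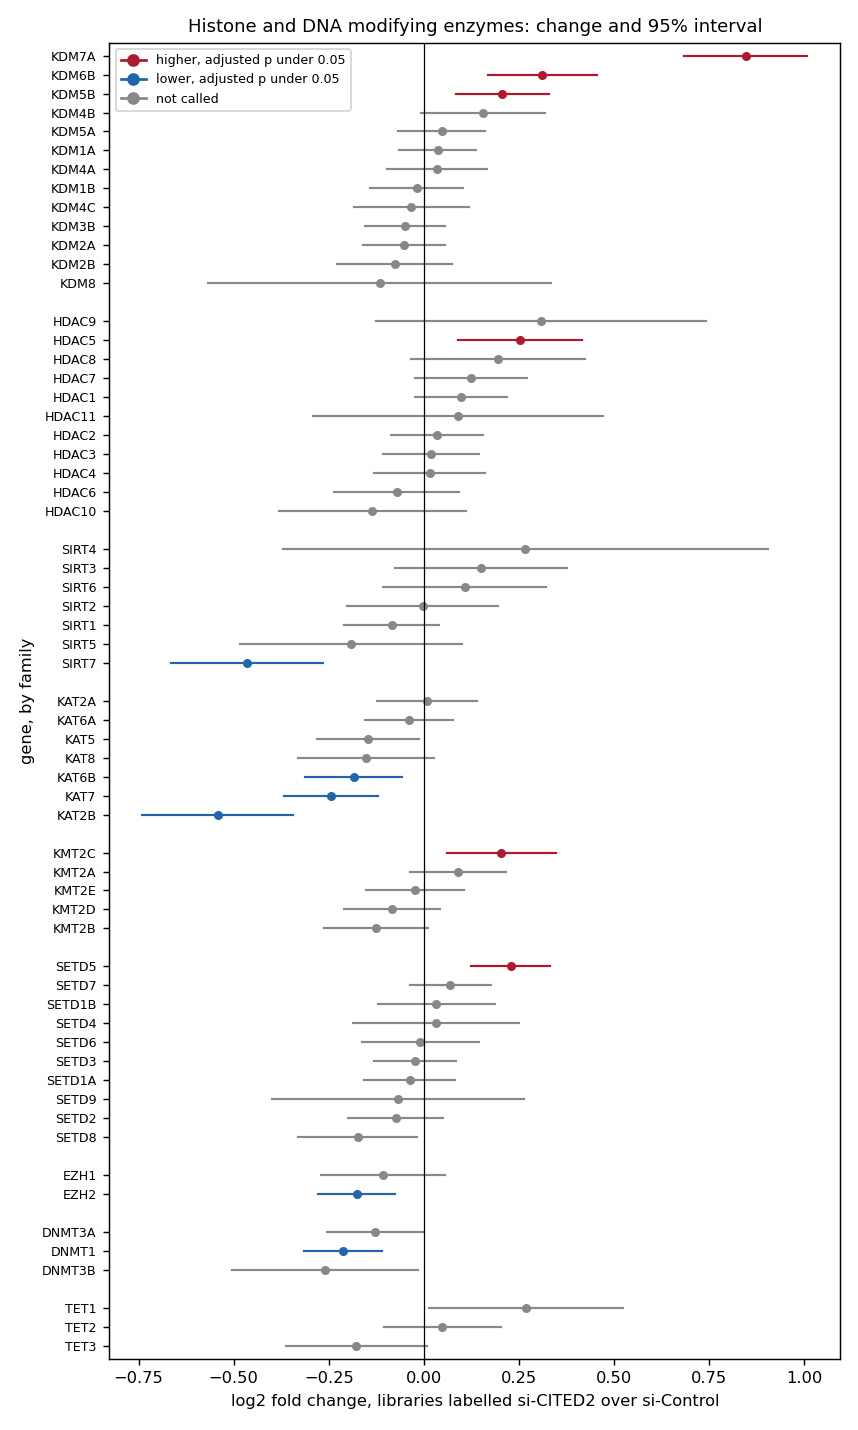
Log2 fold change of each of the 61 enzyme genes, libraries labelled si-CITED2 over si-Control, with its 95% interval from edgeR (n = 3 libraries per group), grouped by family and coloured by call at an adjusted p under 0.05. KDM7A lies alone at 0.85, KAT2B and SIRT7 lie lowest at -0.54 and -0.47, and most other genes lie close to 0.

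The 49 genes that did not pass were measured closely in most cases. For 44 of them the 95% interval of the log2 fold change stayed within 0.5 of 0, a 1.41-fold change in either direction, and for 27 it stayed within 0.25. The 5 with wider intervals were KDM8, HDAC9, SIRT4, DNMT3B and TET1, which include the least counted members. SIRT4, a mitochondrial sirtuin, was the lowest, at 23.1, 20.9 and 24.7 normalized counts in si-Control 1, 2 and 3 and 25.5, 36.3 and 19.7 in the libraries labelled si-CITED2 1, 2 and 3, and its interval ran from -0.37 to 0.91. All 49 intervals stayed within a 2-fold change. These intervals are not adjusted for the number of genes tested, and those of KAT5, SETD8, DNMT3A, DNMT3B and TET1 excluded 0.

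Among the 13 KDM genes, 3 were higher by edgeR, 0 were lower and 10 did not pass, and 0 were lower by DESeq2 or at an unadjusted p under 0.05. Of all genes, 9.36% were higher and 8.09% lower. KDM7A, a JmjC enzyme that removes dimethyl marks from H3K9 and H3K27, showed the largest change of all 61. It was at 429, 420.3 and 453 normalized counts in si-Control 1, 2 and 3 and 841, 749 and 750.5 in the libraries labelled si-CITED2 1, 2 and 3. Every library labelled si-CITED2 lay far above every si-Control library (log2 fold change 0.85, standard error 0.076, adjusted p = 5.19e-07), a rise of 79.8%. JHDM1D-AS1, the antisense transcript that carries the older name of KDM7A and was picked after its values were seen, was at 88.9, 70.8 and 85.9 against 102, 109.9 and 106 and did not pass (adjusted p = 0.114).

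KDM6B, which removes H3K27 trimethylation and so opposes EZH2, was at 839.9, 962 and 975 normalized counts in si-Control 1, 2 and 3 and 1167, 1167 and 1109.8 in the libraries labelled si-CITED2 1, 2 and 3. The groups did not overlap (log2 fold change 0.31, standard error 0.067, adjusted p = 0.0036). KDM5B, which removes H3K4 methylation, was at 1882, 1954 and 2127 normalized counts in si-Control 1, 2 and 3 and 2385, 2276 and 2213 in the libraries labelled si-CITED2 1, 2 and 3. Its groups were also separate, but by a margin smaller than the si-Control range (log2 fold change 0.21, standard error 0.058, adjusted p = 0.0204). The KDM5B call was lost without si-Control 1 or 2 or si-CITED2 1 or 2, with adjusted p of 0.0624, 0.0837, 0.0735 and 0.0666, while KDM7A and KDM6B were called in all 13 alternative fits. Relative to its closest relative in the set, KDM5A (log2 fold change 0.05), KDM5B made up 46.4% ± 1.82 of the summed level per kb in si-Control and 49.1% ± 0.735 in the libraries labelled si-CITED2 (SD, n = 3).

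KDM1A, the flavin-dependent demethylase of the CoREST complex and the most counted KDM gene, was at 5122, 5067 and 4858 normalized counts in si-Control 1, 2 and 3 and 5305, 5131 and 4999 in the libraries labelled si-CITED2 1, 2 and 3. The groups interleaved (log2 fold change 0.04, standard error 0.048, adjusted p = 0.684). The 9 remaining KDM genes, most of which act on H3K4, H3K9 or H3K36, ranged from -0.12 for KDM8 to 0.16 for KDM4B on the log2 scale, and all overlapped between groups. Of the JmjC enzymes with other symbols, 7 were tested and 1 was higher: JMJD1C, a relative of the H3K9 demethylases, at 2593, 2483 and 2902 against 3447, 3358 and 3303 (log2 fold change 0.34, standard error 0.058, adjusted p = 4.71e-04). The other 6 did not pass.

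The start of KDM7A is shown because this gene moved most. The part of its RefSeq promoter window that lies before the first exon annotated in GENCODE 29 (GRCh38.p14, minus strand, chr7:140177036-140177233) reads as follows 5′ to 3′. Capitals mark ACGTG, a form of the core letters of a hypoxia response element, searched on both strands.
KDM7A: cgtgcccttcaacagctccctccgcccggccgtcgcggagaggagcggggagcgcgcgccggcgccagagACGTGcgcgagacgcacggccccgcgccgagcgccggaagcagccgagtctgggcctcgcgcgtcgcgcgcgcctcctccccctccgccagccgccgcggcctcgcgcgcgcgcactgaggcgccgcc
These letters stood in 24.4% of the 90 promoter windows (300 bases each) found for 56 of the 61 members and in 21.4% of the 35097 windows of all genes. Of the 14 windows of called members, 14.3% held them. Other forms of this core were not searched. The motifs were picked with the results in view, and a match describes letters only.

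Of the 11 HDAC genes, 1 was higher and 10 did not pass. HDAC5, a class IIa deacetylase that shuttles between nucleus and cytoplasm, was at 482, 552 and 506 normalized counts in si-Control 1, 2 and 3 and 599, 620.1 and 618 in the libraries labelled si-CITED2 1, 2 and 3. The libraries labelled si-CITED2 lay close together above the si-Control range (log2 fold change 0.25, standard error 0.076, adjusted p = 0.0302). The call was lost without si-Control 1 or 3 or si-CITED2 2 or 3, with adjusted p of 0.0898, 0.0717, 0.102 and 0.0897. Within class IIa, HDAC5 made up 25.6% ± 1.09 of the level per kb summed over HDAC4, HDAC5, HDAC7 and HDAC9 in si-Control and 27.8% ± 1.02 in the libraries labelled si-CITED2 (SD, n = 3).

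HDAC2 and HDAC1, the catalytic subunits of the Sin3, NuRD and CoREST corepressors, stayed within their spread. HDAC2, the most counted HDAC gene, was at 4477, 4469.9 and 4032 against 4171, 4423 and 4703, and HDAC1 at 2145, 2121 and 1958 against 2121, 2210.0 and 2331. Neither passed (log2 fold change 0.03 and 0.10, adjusted p = 0.754 and 0.282). The 8 remaining HDAC genes ranged from -0.14 for HDAC10 to 0.31 for HDAC9 and all overlapped between groups. HDAC8 passed without si-Control 1 (log2 fold change 0.32, adjusted p = 0.0455). HDAC10 is uncertain, since 55.8% of its annotated exon bases lie in exons of MAPK12 on the same strand, and MAPK12 was itself lower (log2 fold change -0.33, adjusted p = 0.0086).

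The deacetylases act within corepressor complexes. Of 25 subunits of these complexes, 3 were higher and 1 was lower (16% called, beside 17.4% of all genes). TBL1XR1, a WD-repeat subunit of the complexes that hold HDAC3, rose (log2 fold change 0.33, adjusted p = 1.84e-04), and its paralogue TBL1X fell (log2 fold change -0.26, adjusted p = 0.00464). GATAD2B of the NuRD complex rose by 0.33 on the log2 scale (adjusted p = 3.30e-04). HDAC3 itself was at 1082, 1181 and 1164 against 1184, 1154 and 1132 (log2 fold change 0.02), with a 95% interval from -0.11 to 0.14.

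Of the 7 sirtuins, 1 was lower and 6 did not pass. SIRT7, a nucleolar sirtuin that removes acetyl groups from H3K18, was at 459, 540.2 and 482 normalized counts in si-Control 1, 2 and 3 and 325, 357 and 391 in the libraries labelled si-CITED2 1, 2 and 3. The groups were separated by a gap wider than either spread in SD (log2 fold change -0.47, standard error 0.094, adjusted p = 0.00214), a fall of 27.6% that was called in all 13 alternative fits. SIRT1, the most counted sirtuin, was at 1525, 1518 and 1381 against 1405, 1349 and 1426 and did not pass (log2 fold change -0.08, adjusted p = 0.388). The other 5 ranged from -0.19 for SIRT5 to 0.27 for SIRT4.

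Sirtuins consume NAD, acetyltransferases acetyl-CoA, methyltransferases S-adenosylmethionine, and the JmjC and TET enzymes 2-oxoglutarate. Of 9 genes for enzymes that supply these cofactors, NAMPT, the rate-limiting step of the NAD salvage pathway, was lower at 12878, 12628 and 12991 against 8749, 8713 and 9129.6 normalized counts (log2 fold change -0.53, standard error 0.045, adjusted p = 2.64e-07). MAT2B, a regulatory subunit of S-adenosylmethionine synthesis, was higher (log2 fold change 0.20, adjusted p = 0.0387), a call lost without si-Control 2 or 3 or any of the libraries labelled si-CITED2 (adjusted p from 0.0691 to 0.162). The other 7 did not pass.

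The KAT family held 3 lower genes, 0 higher and 4 that did not pass by edgeR, and 0 were higher by DESeq2 or at an unadjusted p under 0.05. Of all genes, 8.09% were lower and 9.36% higher. KAT2B, also called PCAF, acetylates H3K9 and was at 461, 501 and 546 normalized counts in si-Control 1, 2 and 3 and 309.6, 360.2 and 362 in the libraries labelled si-CITED2 1, 2 and 3. The highest library labelled si-CITED2 lay well below the lowest si-Control library (log2 fold change -0.54, standard error 0.094, adjusted p = 5.65e-04), a fall of 31.3% called in all 13 alternative fits. Its paralogue KAT2A, which acts in the same SAGA-type complexes, was at 987, 1081 and 1079 against 1087, 1056 and 1024, with a log2 fold change of 0.01 and a 95% interval from -0.12 to 0.14. KAT2B thus made up 23.5% ± 0.884 of the summed KAT2A and KAT2B level per kb in si-Control and 17.3% ± 1.61 in the libraries labelled si-CITED2 (SD, n = 3).

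KAT7, or HBO1, which acetylates H3K14 and is linked to replication origins, was at 1896, 2113 and 1972 normalized counts in si-Control 1, 2 and 3 and 1625, 1761 and 1662 in the libraries labelled si-CITED2 1, 2 and 3. The groups did not overlap (log2 fold change -0.24, standard error 0.058, adjusted p = 0.0072), and the call was lost only without si-Control 2 (adjusted p = 0.0564). KAT6B, or MORF, an acetyltransferase of H3K23, was at 966, 941 and 964 normalized counts in si-Control 1, 2 and 3 and 866, 826 and 835 in the libraries labelled si-CITED2 1, 2 and 3. The groups were separate and narrow, but the difference was small (log2 fold change -0.18, standard error 0.060, adjusted p = 0.0443). The KAT6B call was lost in 8 of 13 alternative fits, among them those that left out si-Control 1, 2 or 3 or si-CITED2 2 or 3 (adjusted p from 0.0746 to 0.146), and that by DESeq2 (adjusted p = 0.076).

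The most counted KAT gene, KAT6A, the close relative of KAT6B, was at 2158, 2287 and 2329.7 against 2314, 2121 and 2161 and overlapped between groups (log2 fold change -0.04, adjusted p = 0.706). KAT5, or TIP60, was at 793, 821 and 832 against 733, 755 and 719.8, with all 3 libraries labelled si-CITED2 below si-Control, but did not pass (log2 fold change -0.15, adjusted p = 0.133). KAT5 is also uncertain, since 38.6% of its exon bases overlap RNASEH2C on the opposite strand and the strand setting of the counting is not known. KAT8, which acetylates H4K16, gave -0.15 (adjusted p = 0.257). Of 26 partner subunits of these enzymes, 0 were lower by edgeR and by DESeq2 (2 at an unadjusted p under 0.05). By edgeR 3 were higher (11.5%, beside 9.36% of all genes). They were KANSL3 and MSL2, which belong to the 2 KAT8 complexes, and MORF4L1 of the KAT5 complex, with log2 fold changes of 0.19, 0.22 and 0.15. Each of these 3 lost its call without si-Control 2 or 3 or without si-CITED2 2, with adjusted p from 0.0693 to 0.184. KANSL3 also lost it without si-CITED2 1 (adjusted p = 0.0602), MORF4L1 without si-CITED2 3 (adjusted p = 0.155), and MSL2 whichever 1 of the 6 libraries was left out (adjusted p up to 0.147).

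The 5 KMT2 genes, of a family that includes H3K4 methyltransferases, held 1 higher gene. KMT2C was at 4585, 4364 and 4782 normalized counts in si-Control 1, 2 and 3 and 5955, 4799 and 5065 in the libraries labelled si-CITED2 1, 2 and 3. Library si-CITED2 1 stood well above the other 2 of its label, and si-CITED2 2 barely exceeded the highest si-Control library (log2 fold change 0.20, standard error 0.068, adjusted p = 0.0485). Without si-CITED2 1 the log2 fold change was 0.11 (adjusted p = 0.231). Without si-Control 1, 2 or 3 or si-CITED2 3 the call was also lost, with adjusted p of 0.0816, 0.191, 0.0515 and 0.0669. KMT2C has near-identical copies of part of its sequence elsewhere in the genome, so its counts are uncertain. KMT2D, its partner at enhancers and the most counted of the 5, was at 7262, 8009 and 8286 against 8004, 7125 and 7117 and did not pass (log2 fold change -0.08, adjusted p = 0.404). KMT2B gave -0.13 and passed without si-Control 1 (log2 fold change -0.19, adjusted p = 0.0311).

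Of the 10 SETD genes, 1 was higher and 9 did not pass. SETD5, a SET-domain protein found with the NCoR corepressor, was at 2894, 3119 and 2937 normalized counts in si-Control 1, 2 and 3 and 3473, 3486 and 3530.0 in the libraries labelled si-CITED2 1, 2 and 3. The 3 libraries labelled si-CITED2 lay close to each other and all above si-Control (log2 fold change 0.23, standard error 0.049, adjusted p = 0.00354), a call kept in all 13 alternative fits. SETD3, an actin methyltransferase and the most counted SETD gene, was at 3987, 4252 and 4075 against 4245, 3971 and 3906 (log2 fold change -0.02, adjusted p = 0.816). SETD8, also named KMT5A, which places the single methyl group of H4K20, was at 2074, 1982 and 2038 against 1545, 1988 and 1858, where si-CITED2 2 reached the si-Control range (log2 fold change -0.17, standard error 0.074, adjusted p = 0.124) and without that library it passed (log2 fold change -0.26, adjusted p = 0.0429). The other 7, with the H3K36 trimethylase SETD2 among them, ranged from -0.07 for SETD2 to 0.07 for SETD7.

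Of 13 subunits of the COMPASS complexes that carry the KMT2 and SETD1 enzymes, 2 were lower and 0 higher (15.4% called, beside 17.4% of all genes). Of the 13, 11 lay below 0, beside 50.3% of all genes. The 2 lower genes were the shared core subunit WDR5 (log2 fold change -0.17, adjusted p = 0.0412) and PAXIP1 of the KMT2C and KMT2D complexes (log2 fold change -0.24, adjusted p = 0.0172). Neither was called without si-Control 2, without si-Control 3 or without si-CITED2 3 (adjusted p from 0.0574 to 0.194), and WDR5 was not called without si-CITED2 2 (adjusted p = 0.15). Of 19 histone lysine methyltransferases with other symbols, 5 were lower and 0 were higher by edgeR and by DESeq2, with 1 higher at an unadjusted p under 0.05. By edgeR this was 26.3% lower, beside 8.09% of all genes. SUV39H1, an H3K9 trimethylase of heterochromatin, was at 355, 283 and 335 against 236, 212 and 214 (log2 fold change -0.56, standard error 0.11, adjusted p = 0.00198), and EHMT2, or G9a, which dimethylates H3K9, was at 2035, 1931 and 1926 against 1614, 1645 and 1643 (log2 fold change -0.27, standard error 0.053, adjusted p = 0.00178). Both kept their calls in all 13 alternative fits. The calls of DOT1L and WHSC1 (log2 fold change -0.29 and -0.16) were lost without si-Control 2, si-Control 3 or si-CITED2 3 (adjusted p from 0.0686 to 0.138), and that of WHSC1 also without si-CITED2 1 or 2 (adjusted p = 0.0599 and 0.0531). SETDB1, an H3K9 methyltransferase named after its values were seen, was also lower (log2 fold change -0.18, standard error 0.053, adjusted p = 0.0289) and lost its call without si-Control 2 or 3 or si-CITED2 2 or 3 (adjusted p from 0.0658 to 0.136).

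EZH2 is the catalytic subunit of polycomb repressive complex 2, which trimethylates H3K27, and was at 3776, 3926 and 3945 normalized counts in si-Control 1, 2 and 3 and 3486, 3371 and 3448 in the libraries labelled si-CITED2 1, 2 and 3. The groups did not overlap, and the difference was a fall of 11.5% (log2 fold change -0.18, standard error 0.047, adjusted p = 0.0154). The call was lost without si-Control 2, si-CITED2 2 or si-CITED2 3, with adjusted p of 0.068, 0.0803 and 0.06. EZH1, the paralogue of non-dividing cells, was at 812, 996 and 981 against 854, 885 and 848 with overlapping groups (log2 fold change -0.11, adjusted p = 0.399). Without si-Control 1 it passed (log2 fold change -0.20, adjusted p = 0.0459). The EZH2 share of the summed level per kb was 88.0% ± 0.932 in si-Control and 87.5% ± 0.430 in the libraries labelled si-CITED2 (SD, n = 3).

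The partners of EZH2 moved in both directions. JARID2, an accessory subunit that helps the complex bind nucleosomes, was at 697, 777 and 742 normalized counts in si-Control 1, 2 and 3 and 1487, 1466 and 1494 in the libraries labelled si-CITED2 1, 2 and 3. It was the largest change in the lists of partner and related genes, with both groups tight and far apart (log2 fold change 1.004, standard error 0.061, adjusted p = 4.40e-09). PHF19, a Tudor-domain subunit that binds H3K36 methylation, was lower at 2712, 2479.7 and 2519 against 2131, 2200.5 and 2007 (log2 fold change -0.28, standard error 0.056, adjusted p = 0.00181). RBBP7, a histone chaperone shared with other complexes, passed narrowly (log2 fold change -0.14, adjusted p = 0.0447) and lost its call whichever 1 of the 6 libraries was left out (adjusted p from 0.0653 to 0.127). The core subunits SUZ12 and EED gave -0.11 and 0.13 and did not pass, nor did the other 4.

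DNMT1, which restores cytosine methylation on the new strand after replication, was the most counted of the 61 genes, at 18058, 18342 and 19572 normalized counts in si-Control 1, 2 and 3 and 15602, 16532 and 16177 in the libraries labelled si-CITED2 1, 2 and 3. The groups were separate (log2 fold change -0.21, standard error 0.048, adjusted p = 0.00513), a fall of 13.7% called in all 13 alternative fits. DNMT3A was at 915, 952 and 949.5 against 857, 851 and 869 and DNMT3B at 244, 278 and 226 against 210.1, 223 and 193, again with every library labelled si-CITED2 below every si-Control library. Neither passed (log2 fold change -0.13 and -0.26, adjusted p = 0.17 and 0.143). DNMT1 made up 95.7% ± 0.294 of the DNMT level per kb in si-Control and 95.6% ± 0.125 in the libraries labelled si-CITED2 (SD, n = 3).

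Of the 3 TET genes, 0 passed by edgeR or DESeq2, and 1 (TET1) had an unadjusted p under 0.05. TET3, the most counted, was at 643, 827 and 752 against 701, 638 and 629 (log2 fold change -0.18, adjusted p = 0.196). Its si-Control 1 value lay within the other group, and without that library the log2 fold change was -0.27 (adjusted p = 0.0259). TET1 was at 149, 164 and 153 against 200.4, 182 and 181, with every library labelled si-CITED2 above si-Control (log2 fold change 0.27, adjusted p = 0.149), and TET2 was at 601, 683 and 680.1 against 675, 671 and 684 (log2 fold change 0.05). Of 8 tested readers and repair enzymes of DNA methylation, 0 passed by edgeR or DESeq2 and 2 had an unadjusted p under 0.05, with UHRF1, which brings DNMT1 to replicating DNA, at 0.05 (adjusted p = 0.552).

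Most markers of dividing cells were lower beside DNMT1 and EZH2, whose transcripts are known to be higher in cycling cells. Of 18 proliferation markers, 16 were lower (88.9%, beside 8.09% of all genes by edgeR) and 0 were higher by edgeR and by DESeq2. At an unadjusted p under 0.05 also 0 of these markers were higher, and their median log2 fold change was -0.37. Their summed level was 127879 to 134642 normalized counts in si-Control and 98172 to 99749 in the libraries labelled si-CITED2, or 75.8% of si-Control. RRM2, a subunit of ribonucleotide reductase, was at 9038, 8776 and 8993 against 5519, 5806 and 5861 (log2 fold change -0.64, standard error 0.047, adjusted p = 4.07e-08). The mitotic kinases AURKA and PLK1 and the topoisomerase TOP2A gave log2 fold changes of -0.51, -0.46 and -0.47. The study reported no effect of CITED2 or NCL expression on growth or viability of cultured prostate cancer cells, by cell counts and MTT. In mice, however, it reported slower growth of PC3 tumors in the prostate after CITED2 or NCL was knocked down. Those assays were not analysed here. The part of the shift in proliferation markers in the values of DNMT1, EZH2 and the other lower enzymes was not tested.

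**Figure D2:**
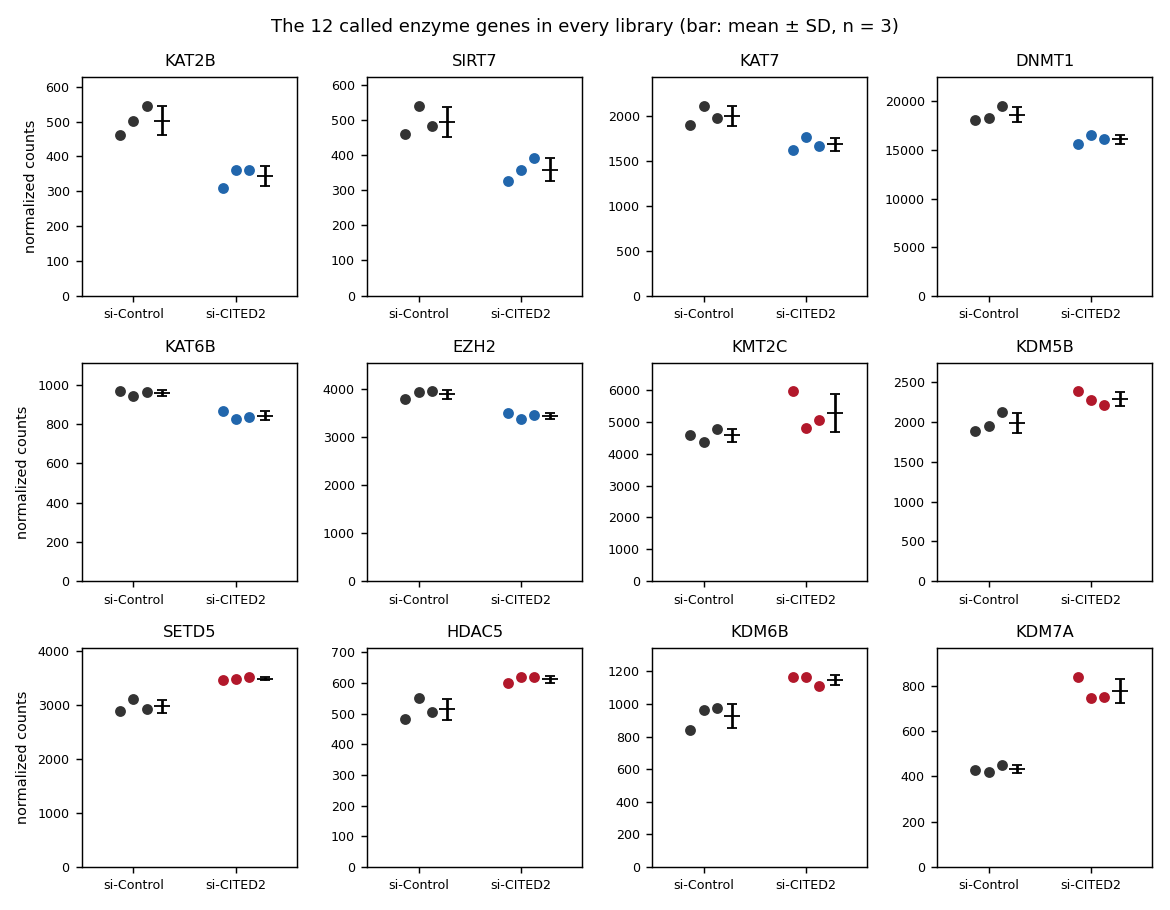
Normalized counts of the 12 enzyme genes that passed the test in each library, ordered from the lowest to the highest log2 fold change. Points are libraries, bars give the mean ± SD of 3, all axes start at 0, and the groups do not overlap in any panel, with the widest relative gap for KDM7A (420.3 to 453 against 749 to 841).

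The promoters of EZH2 and DNMT1 are shown because they were the only 2 of the 90 member windows with the letters TTTNGCGC on either strand. These letters cover only part of the forms bound by E2F factors. Other forms were not searched, so a window without these letters may still hold an E2F site. The letters TTTNGCGC stood in 2.22% of the member windows and in 1.79% of all 35097 windows. In these 30-base stretches around the RefSeq starts (GRCh38.p14, minus strand, chr7:148884272-148884301 for EZH2 and chr19:10194937-10194966 for DNMT1) capitals mark the match.
EZH2: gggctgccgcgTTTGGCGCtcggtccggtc
DNMT1: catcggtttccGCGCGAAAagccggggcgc
The whole EZH2 window also held 4 CCAAT boxes, and 3 of them lie in the stretch before the first exon annotated in GENCODE 29 (chr7:148884322-148884541, minus strand), here in capitals as CCAAT or its reverse complement ATTGG. The window of SETD5, which was higher, held 3 (chr3:9397365-9397614, plus strand) and is shown to set a higher gene beside a lower one.
EZH2 upstream: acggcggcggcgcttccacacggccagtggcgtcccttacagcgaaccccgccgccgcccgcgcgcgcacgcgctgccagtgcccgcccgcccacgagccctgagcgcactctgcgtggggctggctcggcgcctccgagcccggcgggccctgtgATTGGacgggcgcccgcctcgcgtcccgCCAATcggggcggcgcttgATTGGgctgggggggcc
SETD5 upstream: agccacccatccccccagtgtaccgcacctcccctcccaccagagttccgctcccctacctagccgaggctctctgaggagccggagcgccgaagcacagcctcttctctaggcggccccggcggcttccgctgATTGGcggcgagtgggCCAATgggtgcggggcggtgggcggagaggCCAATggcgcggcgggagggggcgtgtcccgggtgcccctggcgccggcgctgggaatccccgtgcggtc
CCAAT or ATTGG occurred in 27.8% of the member windows and 34.6% of all windows. The GC box GGGCGG, searched on both strands, occurred in 66.7% of the member windows and 45.0% of all windows. No RefSeq window was used for HDAC5, SIRT7, SETD1B, KAT8 or KAT6A.

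On a per-length scale (CPM, counts scaled to the same library total, divided by the kb of the longest coding transcript), the 61 genes spanned from 0.21 for HDAC9 to 146 for DNMT1 in si-Control, with a median of 8.35. KDM1A followed at 69.6, EZH2 at 62.4, SETD3 at 60.5 and HDAC1 at 41.4. The genes with the larger fold changes stood lower in this order: SIRT7 at 12.03, KAT2B at 4.41 and KDM7A at 1.99 in si-Control and 3.57 in the libraries labelled si-CITED2. Summed over each family in CPM, SIRT transcripts were at 137 ± 3.19 in si-Control and 129 ± 1.51 in the libraries labelled si-CITED2, KAT at 344 ± 13.2 and 311 ± 2.68, EZH at 204 ± 8.23 and 182 ± 1.79, DNMT at 843 ± 34.0 and 729 ± 20.03 and KDM at 987 ± 14.04 and 1022 ± 16.0 (SD, n = 3), with no overlap between groups in these 5 families. HDAC was at 463 ± 13.5 and 483 ± 14.4, KMT at 917 ± 52.4 and 931 ± 60.2, SETD at 835 ± 23.6 and 843 ± 19.6 and TET at 65.8 ± 6.10 and 64.5 ± 2.05, and these overlapped. The DNMT and EZH sums largely repeat DNMT1 and EZH2, which held 95.7% and 88.0% of their family level per kb in si-Control. Of all single genes tested, 32.5% did not overlap between groups. All 61 enzymes together were at 4795 ± 131 and 4694 ± 43.8 and overlapped.

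**Figure D3:**
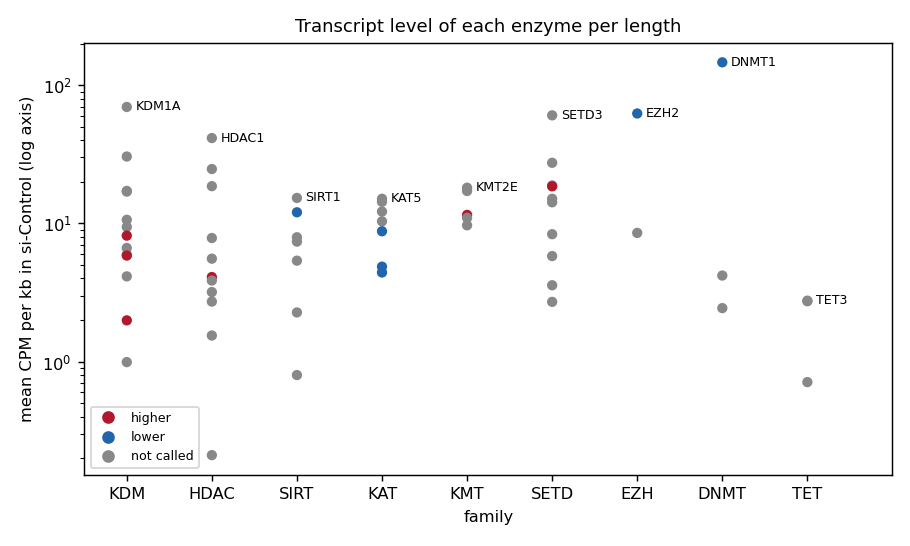
Mean level of each enzyme gene in the 3 si-Control libraries, in CPM per kb on a log axis, by family and coloured by call, with the highest gene of each family named. DNMT1 is highest at 146, and the 12 called genes range from 1.99 for KDM7A to DNMT1.

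The 8 lists of partner, related and cofactor genes together held 116 tested genes, of which 11 were lower and 9 higher (17.2%), beside 17.4% of all genes. As among the enzymes, the share was near the background.

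**Figure D4:**
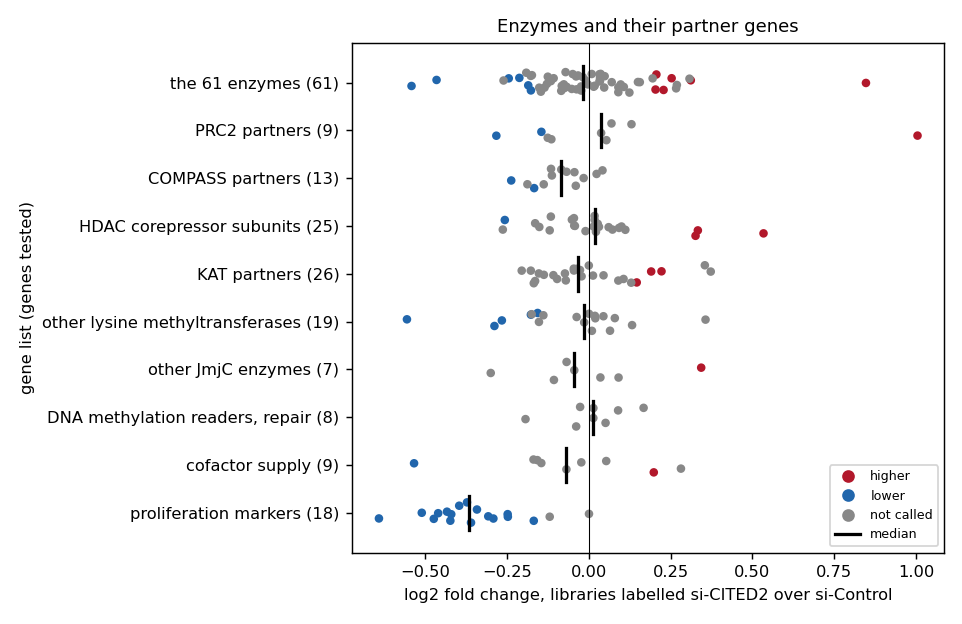
Log2 fold change of the 61 enzyme genes, of 8 lists of partner, related and cofactor genes and of 18 proliferation markers, with 1 point per gene coloured by call and a black bar at the median. The medians of the enzymes and of the 8 lists lie near 0, JARID2 lies at 1.004, and the proliferation markers lie at a median of -0.37.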

How the data were processed

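Per the labels, mRNA-seq libraries (SMARTer kit) were made from Trizol RNA of 6 PC3 samples. For each library the authors deposited a table of unnormalized read counts by gene symbol. The submitters' processing notes name TopHat, edgeR and hg19 without versions. The counting program, annotation and strand setting are not given in the sources used here, so overlapping genes and near-identical copies are uncertain. The files hold no coordinates.

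Of rows that repeat a symbol, that with most counts was kept (0.0821% of counts left out). In R 4.3.3, edgeR 4.0.16 kept 16314 genes with filterByExpr, scaled libraries by TMM and compared the groups by quasi-likelihood test, with Benjamini-Hochberg adjustment over all genes and a threshold of 0.05. A detection floor of 3 counts equals 0.104 to 0.154 CPM, for counting error only. The common biological coefficient of variation was 0.0614. On data simulated from these libraries the test recovered 73 of 100 genes changed by 0.5 on the log2 scale and 95 of 100 changed by 1. Beside these recovered genes stood 16 false calls, from 16144 genes fitted. The changed genes were drawn from those above a limit on mean counts. Changes below 0.5, the size of most member calls here, were not simulated. Exact permutation of 3 against 3 libraries cannot give a p below 0.1 and was not used.

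Same-numbered libraries did not deviate together (mean r across genes -0.0051, against 0.0026 for other pairs). This shows no shared deviation but cannot tell whether the numbers stand for paired cultures. All members that passed are given with every library's value, with the most counted member of each family and up to 4 called genes of each related list. Some genes of the related and marker lists are counted but not reported by name here. The members, lists and motifs were chosen with earlier results of these data known. Levels per kb used GENCODE 29 transcript lengths, and promoter windows came from RefSeq (both GRCh38, neither used with file coordinates). Alternatives were DESeq2 1.42.0, library size without TMM, 2 other filters, summed rows, robust dispersion, a fold limit of 1.5, a replicate block and leaving out each library.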

Additional observations from a re-analysis of the deposited data

How the results depend on the processing

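No result changed direction among the called genes. With a fold change over 1.5 also required, 0 members were lower and 1 (KDM7A) was higher, beside 127 lower and 489 higher of all genes. Leaving out each library in turn gave 3 to 8 lower members and 4 higher ones each time, with the fewest lower without si-Control 2, and log2 fold changes of CITED2 from 0.173 to 0.291. Library size without TMM gave 0.221 for CITED2 (adjusted p = 0.0518). The other alternatives gave 11 or 12 called members. KDM7A, KAT2B, SIRT7, SETD5, KDM6B and DNMT1 were called in all 13 alternative fits. The call of KAT6B was also lost without the filter on low counts, and that of KMT2C with library size without TMM (adjusted p = 0.0578 and 0.0683). The cause was not tested. Over the named genes and alternatives, 484 values kept their side of the threshold and 83 lost a call.

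The labels do not say whether the replicate numbers pair the libraries. With the number as a block, 5 members were lower and 6 higher, 1154 genes were lower and 1405 higher in all, and CITED2 gave 0.240 (adjusted p = 0.0464). Depth limited SIRT4, HDAC9 and KDM8 most, each under 100 counts in every library.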
